A study of Homo sapiens with 6 samples.

Results

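The clustered histone genes are the rows of a 16311-gene expression table whose names begin with HIST1H, HIST2H, HIST3H or HIST4H, and 38 rows matched. Of these, 27 belong to the HIST1 cluster on chromosome 6, 10 to HIST2 on chromosome 1 and 1, HIST4H4, lies alone on chromosome 12, while no HIST3 row matched. By the class in their names, 3 rows are H1 (the linker histone), 7 H2A, 14 H2B, 5 H3 and 9 H4. By identifier, 33 of them are protein-coding genes in GENCODE release 29, 4 are pseudogenes and 1, named HIST2H3PS2, is a processed transcript. That release holds 71 protein-coding clustered histone genes. Rows covered 2 of 6 H1, 7 of 17 H2A, 12 of 18 H2B, 4 of 15 H3 and 8 of 15 H4. Class sums and shares below therefore describe only the rows present. The rows were picked by name, but the family itself was chosen by its measured values in the same FIR against untreated comparison, in which many of its genes were already known to be higher. The counts of rising and falling genes below therefore describe the family and do not test it. RNA was sequenced from LNCaP, an established androgen-sensitive human prostate adenocarcinoma line, in 3 libraries of untreated cells and 3 libraries of cells given a cumulative dose of 40 Gy of FIR, an abbreviation the labels leave unexplained and the series title ties to radiation. Both groups were grown in RPMI1640 with serum and antibiotics. The sample titles mark the replicates as BR without spelling it out. Neither the size of each fraction, the time from the last dose to RNA isolation nor whether the replicates were separate cultures can be read from the labels. The p-values therefore reflect how far these 3 libraries of a group scatter, and that scatter may be only technical.

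Nucleosomes are built from H2A, H2B, H3 and H4, with H1 bound to the DNA between them, and most of these proteins are made during DNA replication from the clustered genes. Their mRNAs usually end in a stem-loop, bound by the stem-loop binding protein SLBP, in place of a poly(A) tail, and they are degraded when DNA synthesis stops. Some clustered genes are also known to give polyadenylated transcripts that extend past the stem-loop, above all in cells that have left the cell cycle. The labels name total RNA as the molecule, and whether poly(A) selection followed is not given there.

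The stem-loop is shown first because the annotated bases past it differ widely among members. It was searched for in the GENCODE release 29 transcripts as a perfect 6-bp stem that opens with GG, closed by a loop of 4 bases that opens with TT. It occurred in 21 of the 38 members, against 124 of 19851 other protein-coding genes (0.625%). All 7 H4 members with the hairpin had stems opening GGCCC, and the other 14 had stems opening GGCTC. Capitals mark the 16 bases of stem and loop in 6 members whose values are described below, written 5′ to 3′ as DNA letters of the transcript strand.
HIST1H2AC: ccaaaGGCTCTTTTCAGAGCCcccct
HIST2H2BE: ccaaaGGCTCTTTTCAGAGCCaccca
HIST1H2BD: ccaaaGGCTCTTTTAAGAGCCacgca
HIST1H3H: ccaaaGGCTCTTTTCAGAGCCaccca
HIST1H4H: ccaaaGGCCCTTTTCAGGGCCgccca
HIST1H4I: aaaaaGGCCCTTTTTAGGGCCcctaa

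Many H2A and H2B genes stand head to head and share 1 stretch of DNA as their promoter. The 250 bases before the RefSeq start (GRCh38.p14) are printed for 4 genes. HIST2H2AC (chr1:149886668-149886917, + strand) fell while HIST2H2BE, read from the other side of the same stretch, rose. Their rows count unlike parts of a transcript, as described with the pairs below. HIST1H2AG (chr6:27132793-27133042, + strand) fell together with its partner, and HIST1H2AC (chr6:26123922-26124171, + strand) rose together with its partner. HIST1H4H (chr6:26285535-26285784, - strand) is the H4 row with the most reads and has no head-to-head H2A or H2B partner. Capitals mark matches, on either strand, of the TATA box letters TATAAA, of the CAAT box letters CCAAT and of the octamer ATTTGCAT. In HIST1H2AG a match on each strand overlaps near the start, where capitals run over both.
HIST2H2AC: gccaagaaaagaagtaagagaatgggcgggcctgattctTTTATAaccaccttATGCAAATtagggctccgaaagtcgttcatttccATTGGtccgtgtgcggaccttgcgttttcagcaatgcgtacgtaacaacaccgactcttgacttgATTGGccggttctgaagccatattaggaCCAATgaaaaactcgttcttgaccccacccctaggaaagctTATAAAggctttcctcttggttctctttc
HIST1H2AG: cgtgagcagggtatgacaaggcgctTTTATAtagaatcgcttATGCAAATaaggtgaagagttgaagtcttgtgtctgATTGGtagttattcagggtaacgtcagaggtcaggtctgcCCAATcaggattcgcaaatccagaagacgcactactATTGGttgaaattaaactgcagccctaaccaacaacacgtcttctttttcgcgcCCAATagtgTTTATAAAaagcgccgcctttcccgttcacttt
HIST1H2AC: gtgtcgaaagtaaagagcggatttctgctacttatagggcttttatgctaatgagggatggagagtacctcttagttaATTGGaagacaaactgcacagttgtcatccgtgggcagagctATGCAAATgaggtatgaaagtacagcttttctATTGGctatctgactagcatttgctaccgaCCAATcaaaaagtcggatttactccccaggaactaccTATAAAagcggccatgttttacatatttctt
HIST1H4H: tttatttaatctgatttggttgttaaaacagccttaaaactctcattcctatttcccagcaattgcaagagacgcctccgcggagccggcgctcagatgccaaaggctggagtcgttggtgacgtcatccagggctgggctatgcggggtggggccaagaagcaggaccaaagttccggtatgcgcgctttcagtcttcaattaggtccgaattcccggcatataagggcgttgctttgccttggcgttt

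A RefSeq promoter window of 300 bases was matched to 32 members. TATAAA was found in 23 of them (71.9%), CCAAT in 25 (78.1%) and the octamer in 14 (43.8%). The same motifs were found in 11.5%, 34.6% and 1.77% of 35116 RefSeq promoters of the same length. The octamer occurred in 5 of 7 H2A and 9 of 12 H2B promoters and in 0 of the 13 others, whereas CCAAT occurred in all 7 H2A and all 12 H2B promoters and in 1 of 8 H4 promoters. No matches of different motifs overlapped in any of the 32 windows. All 3 motifs were found in 4 of the 4 falling members with a window, in 7 of 24 that rose and in 1 of 4 that did not pass. The falling members were all H2A or H2B genes, the only classes with the octamer, whereas only 3 H2A and 9 H2B members were among those that rose. These shares therefore also reflect class, and the difference between them was not tested. Head-to-head partners share most of a window, so their motifs are not separate counts. HIST1H2AG and HIST1H2BJ both fell, whereas HIST2H2AC fell and its partner HIST2H2BE rose. The only TATAAA match of HIST1H2AE, on the reverse strand at -206, is the forward match of its partner HIST1H2BG at -32.

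The summed histone rows were higher in the FIR libraries in every class. Summed over all 38 members, the level was 599.9, 601 and 612 CPM (the reads of a gene relative to the library total, scaled with TMM factors) in the untreated libraries and 1400, 1481 and 1508 CPM in the FIR libraries. This is a 2.42-fold difference between means of 604 ± 6.74 and 1463 ± 56.4 CPM (SD, n = 3 in each group). Of the 38 members, 26 rose, 4 fell and 8 did not pass edgeR's quasi-likelihood test with Benjamini-Hochberg adjustment over all 16311 genes at 0.05. Of all genes, 25.4% rose and 23.4% fell by the same test. The median log2 fold change was 1.03 over the members and 0.01 over all genes. In 27 members every FIR library lay above every untreated one and in 4 every FIR library lay below, where 29.4% and 27.5% of all genes did so. In bulk RNA, more cells of one kind and more RNA per cell cannot be told apart, and changes are relative to all other transcripts.

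The classes differed in size and in how many genes carried them. H2B was the largest class by reads, with a summed level of 308, 303 and 305 CPM in untreated and 782.5, 767 and 833 CPM in FIR libraries, a 2.60-fold difference. Summed H2A rose most, from 83.2 ± 5.496 to 267 ± 20.9 CPM (3.21-fold). Summed H4 went from 77.2 ± 5.20 to 177 ± 5.49 CPM (2.30-fold). H1 and H3 differed least, at 85.5 ± 8.54 against 139.7 ± 15.6 CPM (1.63-fold) and 53.1 ± 6.49 against 84.4 ± 7.15 CPM (1.59-fold). The groups of libraries did not overlap in any class sum. Among the rows present, the 4 core classes did not keep their proportions. H2A made up 13.8% of the summed histone level in untreated and 18.2% in FIR libraries and H2B 50.5% and 54.3%. H3 made up 8.79% and 5.77%, H4 12.8% and 12.1%, and H1 14.1% and 9.55%. No test was run on the sums.

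**Figure D1:**
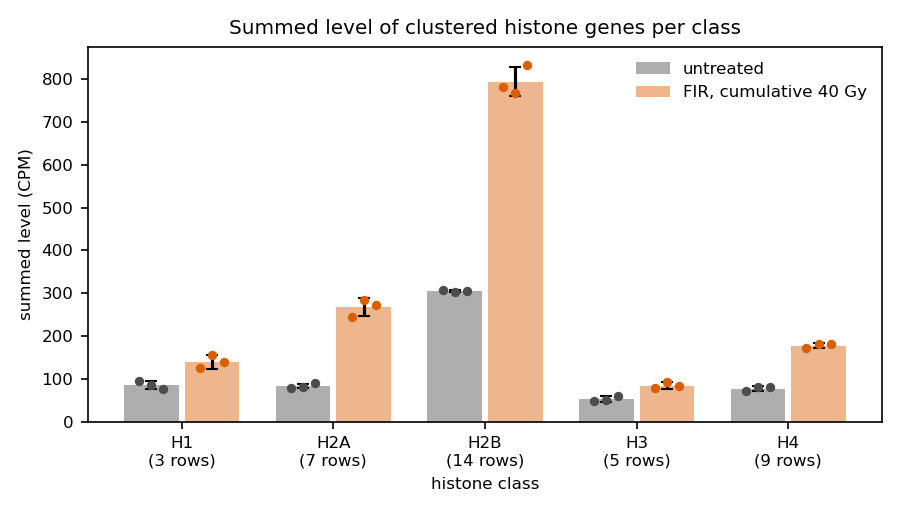
Summed level in CPM (vertical axis) of the clustered histone genes of each class (horizontal axis) in untreated and FIR libraries. Bars are means of 3 libraries, error bars are SD and points are libraries; H2B stands highest, at 305 CPM untreated and 794 CPM after FIR, and no class overlaps between groups.

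Each class sum rested on a few genes. As a share of a class's CPM, which counts reads and so weights long transcripts more, HIST1H1C gave 98.5% of H1 in untreated libraries, HIST1H2AC 68.6% of H2A, HIST2H2BE 37.1% of H2B, HIST1H3H 49.4% of H3 and HIST1H4H 44.7% of H4. After FIR the shares of HIST1H2AC, HIST2H2BE and HIST1H4H stood at 88.9%, 47.7% and 57.0%. Without HIST1H2AC the other 6 H2A members summed to 25.6, 27.9 and 24.8 CPM in untreated and 24.9, 32.3 and 31.6 CPM in FIR libraries, which overlap, so the separation of the H2A sums rested on that 1 gene. Without their top gene the other classes kept a difference without overlap, at log2 ratios of 1.73 for H1, 1.11 for H2B, 0.77 for H3 and 0.84 for H4.

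**Figure D2:**
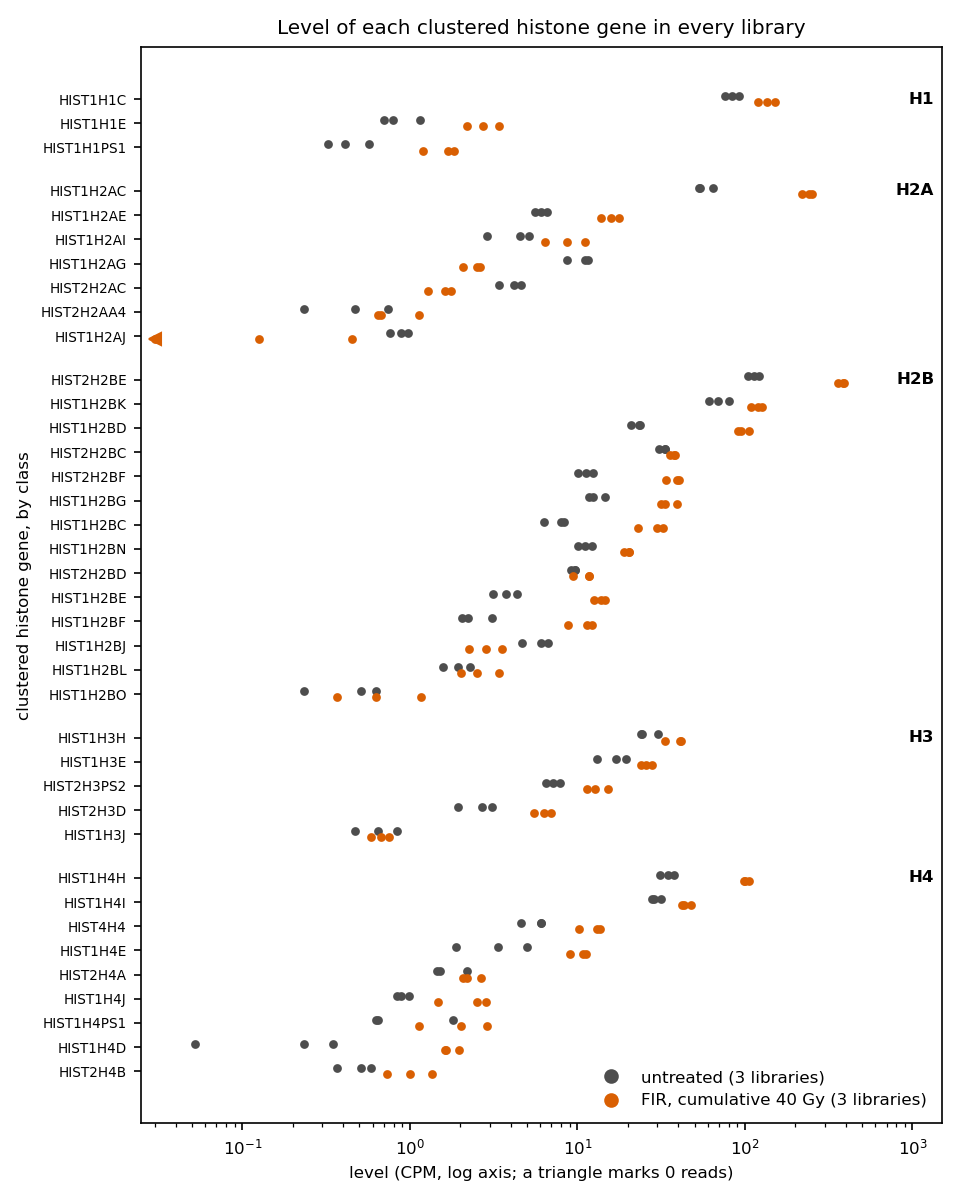
Level of each of the 38 members (rows, by class) in every library, in CPM on a log axis, with untreated libraries in grey and FIR libraries in orange. HIST2H2BE, HIST1H2AC, HIST1H1C and HIST1H2BK stand far to the right, and all orange points lie left of all grey points only for HIST1H2AG, HIST2H2AC, HIST1H2AJ and HIST1H2BJ.

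Linker histone H1 compacts the fibre between nucleosomes, and all 3 H1 members rose. HIST1H1C (H1.2; chr6:26055787-26056428) was at 92.6, 83.8 and 76.2 CPM in untreated and 119.0, 151 and 136 CPM in FIR libraries. Its log2 fold change was 0.68 (SE 0.10, edgeR adjusted p = 3.8e-05), the smallest in the class, and the groups did not overlap. HIST1H1E (H1.4) was at 0.70 to 1.15 CPM untreated and 2.20 to 3.43 CPM after FIR, a log2 fold change of 1.65. The pseudogene row HIST1H1PS1 had the largest rise of the class, 1.84 (SE 0.39, edgeR adjusted p = 0.00125), on only 25 untreated and 75 FIR reads. Its levels of 0.574, 0.325 and 0.408 CPM against 1.83, 1.68 and 1.20 CPM did not overlap, and it overlaps another row on the opposite strand, with which reads may be shared. All its untreated levels lay under 0.605 CPM, the lowest third-highest level of any gene in the table. HIST1H1PS1 was thus kept through its FIR libraries, and its fold change and p-value carry that selection.

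H2A pairs with H2B in the nucleosome, and its members moved in both directions: 3 rose, 3 fell and 1 did not pass. HIST1H2AC (chr6:26124145-26139116) was at 53.1, 53.6 and 64.5 CPM in untreated and 219, 253 and 239.8 CPM in FIR libraries. Every FIR library was more than 3 times above every untreated one, a log2 fold change of 2.06 (SE 0.09, edgeR adjusted p = 1.4e-10). HIST1H2AE was at 5.58, 6.04 and 6.59 CPM in untreated and 13.9, 15.9 and 17.8 CPM in FIR libraries, without overlap. Its log2 fold change was 1.39 (SE 0.15, edgeR adjusted p = 2.4e-06). HIST1H2AI rose by 1.06, although only 37.7% of its 50-base stretches are unique to it among GENCODE transcripts, so its reads may belong in part to near-identical copies.

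The falling H2A genes were HIST1H2AG, HIST2H2AC and HIST1H2AJ. HIST1H2AG (chr6:27133042-27135291) was at 11.6, 11.1 and 8.69 CPM in untreated and 2.63, 2.53 and 2.08 CPM in FIR libraries. All FIR libraries lay below all untreated ones, and the log2 fold change was -2.11 (SE 0.20, edgeR adjusted p = 4.4e-07). HIST2H2AC (chr1:149886975-149887364) was at 4.17, 4.60 and 3.38 CPM in untreated and 1.28, 1.62 and 1.76 CPM in FIR libraries, again without overlap. Its log2 fold change was -1.38 (SE 0.25, edgeR adjusted p = 0.00036). HIST1H2AJ had 51 untreated and 9 FIR reads in all, at 0.887, 0.975 and 0.759 CPM against 0, 0.454 and 0.126 CPM, a log2 fold change of -2.17 (SE 0.64, edgeR adjusted p = 0.0114). Its log2 fold change was -3.68 without FIR replicate 2 and -1.59 without FIR replicate 1, both still past the threshold. Only 16.3% of its 50-base stretches are unique, so its few reads may be shared with copies. All its FIR levels lay under 0.605 CPM, so HIST1H2AJ was kept through its untreated libraries. Its fold change and p-value carry that selection. HIST2H2AA4, at 0.482 ± 0.255 and 0.818 ± 0.272 CPM (SD, n = 3), overlapped between groups and did not pass, and 2.91% of its 50-base stretches are unique.

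In the H2B class 9 members rose, 1 fell and 4 did not pass. HIST2H2BE (chr1:149884459-149886652) had the most reads of any member, at 104.9, 113 and 122 CPM in untreated and 387, 359.8 and 390.5 CPM in FIR libraries. The groups were far apart, with a log2 fold change of 1.74 (SE 0.08, edgeR adjusted p = 1.4e-10). HIST1H2BD (chr6:26158146-26171349) was at 23.2, 20.8 and 23.6 CPM in untreated and 95.1, 90.8 and 105 CPM in FIR libraries. Its log2 fold change of 2.11 (SE 0.09) had the smallest adjusted p of the family, 9.9e-11 by edgeR. HIST1H2BK (chr6:27146418-27146798) was at 80.4, 69.5 and 61.2 CPM in untreated and 109, 119 and 126.5 CPM in FIR libraries, without overlap. It rose least of the 9 rising H2B members, by 0.75 (SE 0.10, edgeR adjusted p = 1.8e-05), and only 25.9% of its 50-base stretches are unique.

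The largest H2B rise was that of HIST1H2BF, at 3.08, 2.23 and 2.04 CPM in untreated and 8.81, 11.4 and 12.2 CPM in FIR libraries. The groups did not overlap, and its log2 fold change was 2.14 (SE 0.21, edgeR adjusted p = 8.0e-07). HIST1H2BC was at 8.29, 8.03 and 6.30 CPM in untreated and 29.9, 23.0 and 32.4 CPM in FIR libraries, a log2 fold change of 1.91 (SE 0.15). HIST2H2BF, at 10.1, 11.2 and 12.3 CPM against 33.9, 40.2 and 39.1 CPM, rose by 1.75 (SE 0.12), but overlaps FCGR1A on the opposite strand. HIST1H2BG rose by 1.43 (SE 0.13), from 14.7, 11.7 and 12.4 CPM to 31.7, 33.1 and 39.4 CPM. HIST1H2BN rose by 0.84 (SE 0.13), from 10.1, 12.2 and 11.03 CPM to 20.4, 20.4 and 18.9 CPM. In none of these genes did the groups of libraries overlap, nor in HIST1H2BE, which rose by 1.86 from 3.76 ± 0.610 to 13.7 ± 1.07 CPM. HIST1H2BE also overlaps another row on the opposite strand, AL353759.1, with which reads may be shared.

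HIST1H2BJ was the H2B gene that fell, from 6.05, 6.69 and 4.67 CPM to 2.26, 3.56 and 2.83 CPM. The groups did not overlap, and the log2 fold change was -1.01 (SE 0.23, edgeR adjusted p = 0.0018). The pseudogene rows HIST2H2BC and HIST2H2BD overlap each other on opposite strands and gave log2 fold changes of 0.20 and 0.21, neither of which passed. HIST2H2BC was at 30.9, 33.4 and 33.4 CPM against 38.4, 35.9 and 37.9 CPM, a small difference without overlap (edgeR adjusted p = 0.0808), while HIST2H2BD, at 9.65, 9.10 and 9.63 CPM against 9.42, 11.7 and 11.8 CPM, overlapped. HIST1H2BL (1.93 ± 0.358 and 2.65 ± 0.716 CPM) and HIST1H2BO (0.457 ± 0.202 and 0.721 ± 0.407 CPM) also overlapped and did not pass.

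H3 and H4 form the core tetramer of the nucleosome, and no member of either class fell. Of the H3 members 4 rose and 1, HIST1H3J at 0.649 ± 0.183 and 0.670 ± 0.0858 CPM, did not pass. HIST1H3H (chr6:27810064-27811300) was at 24.5, 23.9 and 30.3 CPM in untreated and 33.4, 41.5 and 40.9 CPM in FIR libraries. The lowest FIR library lay just above the highest untreated one, and the log2 fold change was 0.56 (SE 0.12, edgeR adjusted p = 0.0011). HIST1H3E was at 13.1, 17.0 and 19.5 CPM in untreated and 25.6, 27.8 and 23.9 CPM in FIR libraries, a log2 fold change of 0.64 (SE 0.14). HIST2H3D had the largest H3 rise, 1.29 (SE 0.22, edgeR adjusted p = 0.00020), from 3.08, 1.95 and 2.68 CPM to 5.51, 6.93 and 6.35 CPM, and 19.6% of its 50-base stretches are unique. Neither gene overlapped between groups. The row named HIST2H3PS2, whose identifier GENCODE release 29 gives to AC239798.4, was at 6.47, 7.85 and 7.12 CPM against 12.7, 15.2 and 11.4 CPM and rose by 0.88 (SE 0.16).

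In the H4 class 7 members rose and 2 did not pass. The protein-coding H4 genes among them are known to encode the same protein. HIST1H4H (chr6:26277609-26285638) was at 31.2, 34.6 and 37.8 CPM in untreated and 99.5, 98.5 and 105.5 CPM in FIR libraries. The groups were far apart, with a log2 fold change of 1.55 (SE 0.09, edgeR adjusted p = 2.0e-09). HIST1H4I (chr6:27138588-27139881) was at 28.7, 31.5 and 27.8 CPM in untreated and 43.0, 47.8 and 41.9 CPM in FIR libraries. It did not overlap either, but its log2 fold change was 0.59 (SE 0.09, edgeR adjusted p = 0.00011). Per annotated length HIST1H4I stood above HIST1H4H in untreated libraries, at 22.7 against 15.97 RPKM, and below it after FIR, at 34.2 against 46.8 RPKM. The annotated lengths, 1294 bases for HIST1H4I and 2163 for HIST1H4H, include 212 and 1655 bases past the stem-loop. The part of those bases in this order was not tested. HIST1H4D had the largest rise of all members, 3.02 (SE 0.48, edgeR adjusted p = 9.6e-05), on 12 untreated and 83 FIR reads. Its levels were 0.0522, 0.232 and 0.350 CPM in untreated and 1.96, 1.62 and 1.63 CPM in FIR libraries. Every untreated level lay under 0.605 CPM, the lowest third-highest level of any gene in the table. HIST1H4D was thus kept through its FIR libraries, and its fold change and p-value carry that selection. HIST4H4, HIST1H4E and HIST1H4J rose by 1.14, 1.61 and 1.33.

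Copies limit what can be said of 2 further H4 genes. HIST2H4A and HIST2H4B have 2.46% and 2.82% unique 50-base stretches, and reads cannot be assigned to one or the other with confidence. HIST2H4A, at 1.72 ± 0.401 and 2.31 ± 0.305 CPM, did not pass. HIST2H4B rose by 1.08 from 0.486 ± 0.111 to 1.03 ± 0.314 CPM with an edgeR adjusted p of 0.0456. That call was lost without untreated replicate 1, 2 or 3 (edgeR adjusted p = 0.14, 0.097 and 0.053) and without FIR replicate 2 or 3 (0.18 and 0.082). All untreated levels of HIST2H4B lay under 0.605 CPM, so it was kept through its FIR libraries. Its fold change and p-value carry that selection. The pseudogene row HIST1H4PS1 (1.03 ± 0.676 and 2.01 ± 0.872 CPM) did not pass with all libraries, but did without untreated replicate 3 or FIR replicate 3 (edgeR adjusted p = 0.0071 and 0.033).

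**Figure D3:**
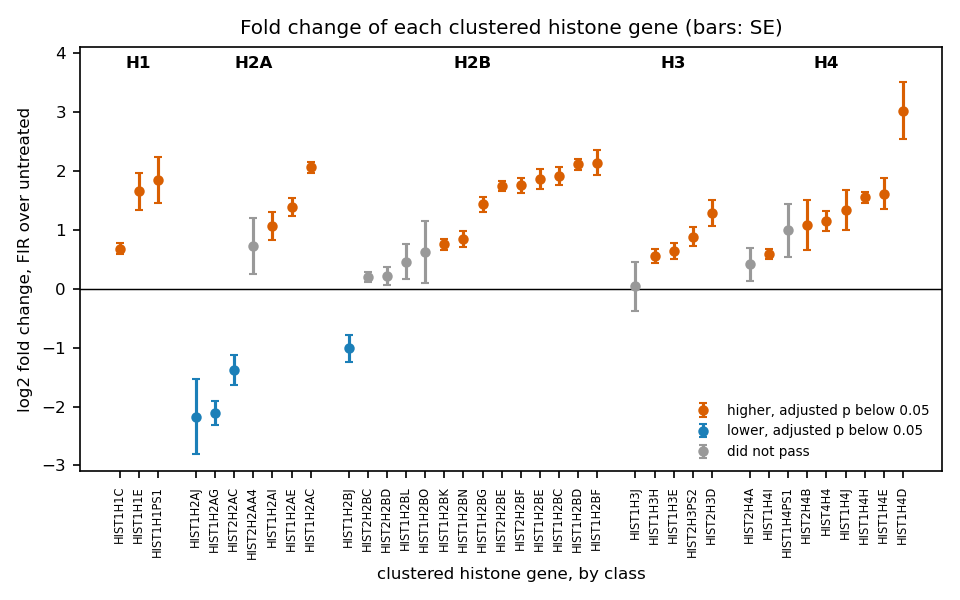
Log2 fold change, FIR over untreated (vertical axis), of each of the 38 members (horizontal axis, by class), with SE as bars. Orange points rose, blue points fell and grey points did not pass edgeR's test; the 4 blue points are H2A and H2B genes, and HIST1H4D lies highest at 3.02.

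Per annotated length, levels of different genes were set side by side as RPKM computed from the CPM. In untreated libraries the highest mean levels were those of HIST1H2BK (184.7 RPKM), HIST1H1C (131 RPKM), HIST2H2BE (51.6 RPKM) and HIST1H2AC (34.2 RPKM). After FIR the same 4 genes led in the same order, at 310.5, 211, 173 and 142 RPKM. The annotated lengths of HIST1H2BK and HIST1H1C are 381 and 642 bases with no stem-loop inside, so these levels per length take in only reads within those bases. Those of HIST2H2BE and HIST1H2AC, 2194 and 1668 bases, include 1729 and 1128 bases past the stem-loop.

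Within head-to-head pairs, partners moved together in some and apart in others. Starts of both partners lay within 1000 bases on opposite strands in 5 pairs in which both genes had a row, at distances of 233 to 248 bases. In the pairs HIST1H2AC/HIST1H2BC and HIST1H2AE/HIST1H2BG both genes rose. The log2 ratio of H2A to H2B CPM was 2.68, 2.74 and 3.35 in untreated and 2.87, 3.46 and 2.89 in FIR libraries for the first, and -1.39, -0.95 and -0.91 against -1.19, -1.06 and -1.15 for the second, both with overlap. Both genes of HIST1H2AG/HIST1H2BJ fell, and their log2 ratio went from 0.94, 0.72 and 0.90 to 0.22, -0.50 and -0.45, without overlap. In HIST2H2AC/HIST2H2BE, with starts 236 bases apart, the H2A gene fell and the H2B gene rose. Their log2 ratio was -4.65, -4.62 and -5.17 in untreated and -8.24, -7.80 and -7.79 in FIR libraries, the widest separation of the 5 pairs. The HIST2H2AC row has 390 annotated bases without the stem-loop, and the HIST2H2BE row 2194, of which 1729 lie past it. These rows thus count unlike parts of a transcript, and the part of that in the ratio was not tested. In HIST1H2AI/HIST1H2BL the H2A gene rose and the H2B gene did not pass, and the ratios overlapped. An exact two-sided permutation test of 3 against 3 libraries cannot give a p under 0.1, so none was run on the ratios.

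**Figure D4:**
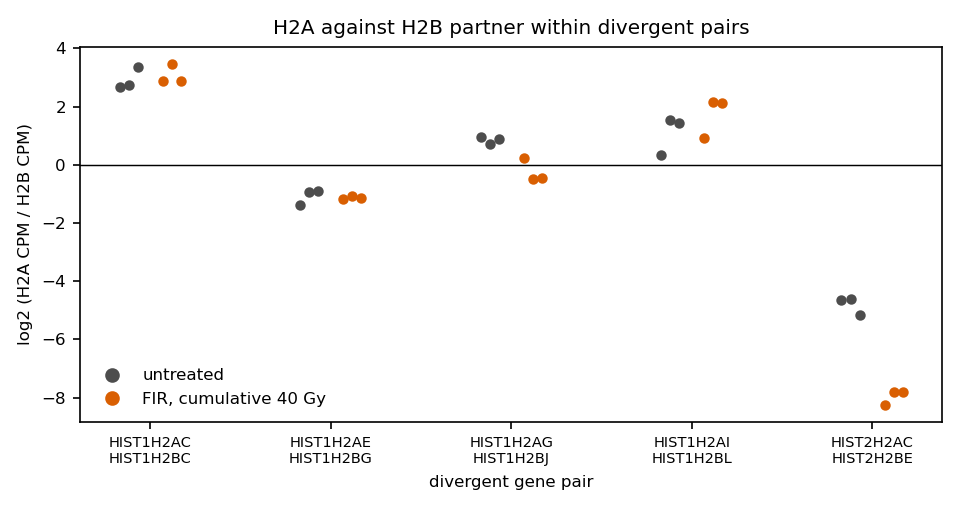
Log2 ratio of H2A CPM to H2B CPM (vertical axis) in each library for the 5 head-to-head pairs in which both genes had a row (horizontal axis), untreated in grey and FIR in orange. The orange points lie below all grey points for HIST1H2AG/HIST1H2BJ and HIST2H2AC/HIST2H2BE and overlap with them in the other pairs.

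Along chromosome 6 the rises were not spread evenly. The HIST1 members fall on either side of a wide gap, a division made after their values were seen and therefore not tested. All 14 members in chr6:26055787-26285638 rose, with a median log2 fold change of 1.75. Of the 13 members in chr6:27125897-27893843, 6 rose, 3 fell and 4 did not pass, with a median of 0.59. Of all genes, 25.4% rose and 23.4% fell, so falls in this second stretch were about as frequent as in the whole table. The first stretch held the large rises of HIST1H2BD, HIST1H2AC and HIST1H4H but also the small ones of HIST1H1C (0.68) and HIST1H3E (0.64). Those lay in the range of HIST1H2BK (0.75), HIST1H4I (0.59) and HIST1H3H (0.56) in the second.

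**Figure D5:**
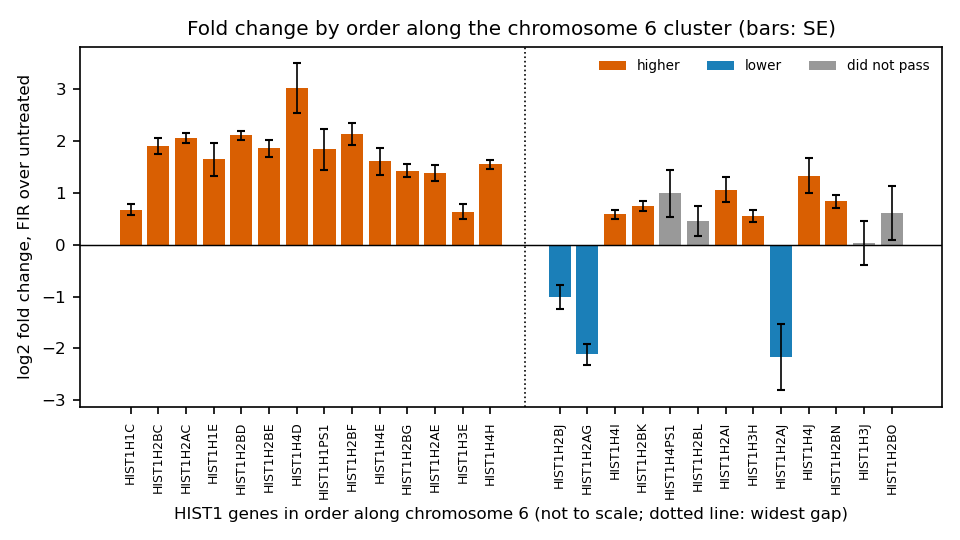
Log2 fold change, FIR over untreated (vertical axis), of the 27 HIST1 members in their order along chromosome 6 (horizontal axis, not to scale), with SE as error bars. All 14 bars left of the dotted line, which marks the widest gap, point up; the 3 falling genes lie among the 13 to its right.

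The annotated ends of the transcripts also differed among members. Of the 21 members with the stem-loop, 18 rose, 0 fell and 3 did not pass. Of the 17 without it 8 rose, 4 fell and 5 did not pass, where 25.4% of all genes rose and 23.4% fell. These 17 include all 5 pseudogene or otherwise named rows. They also include rows of short annotated length, such as HIST1H2AJ (387 bases) and HIST2H2AC (390), which fell, and HIST1H2BK (381) and HIST1H4D (312), which rose. Longer rows were among them too, such as HIST1H2AG (2250 bases) and HIST1H2BJ (950), which fell, and HIST1H3E (2679), which rose. The search covered annotated bases and perfect stems only, so a stem-loop not found there does not show that the gene lacks it. At least 100 annotated bases followed the stem-loop in 15 members, of which 14 rose and 1 did not pass (median log2 fold change 1.55). This group included HIST2H2BE with 1729 bases past the hairpin, HIST1H4H with 1655 and HIST1H2AC with 1128. In the 6 members with fewer than 100 bases past it, 4 rose and 2 did not pass (median 1.20). The limit of 100 bases was set after the values were seen. Of the 8 members listed as known to give polyadenylated transcripts, 7 rose and HIST1H2BJ fell (median 1.44), and of the 30 others 19 rose, 3 fell and 8 did not pass (median 0.93). Calls also differed with level. Of 17 members with a mean of at least 10 CPM, 15 rose and 0 fell (median 0.88). Of 21 members under 10 CPM, 11 rose and 4 fell (median 1.06). The part of level in the splits above was not tested. The table counts all reads of a gene together, so reads that end at the stem-loop and reads that run past it were not separated.

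Genes outside the family were described by lists, whose counts stand beside 25.4% of all genes that rose and 23.4% that fell. Replication-independent variants are histones made throughout the cell cycle, although H2AFX, the variant phosphorylated at DNA breaks, and CENPA, the centromeric H3, are also known to be higher in dividing cells. Of 11 variants analysed of 14 listed, 0 rose, 7 fell and 4 did not pass (median log2 fold change -0.47). H2AFX was at 366, 312 and 248 CPM in untreated and 38.1, 36.9 and 36.4 CPM in FIR libraries, a fall far beyond the spread between libraries (log2 fold change -3.05, SE 0.12, edgeR adjusted p = 3.2e-11). CENPA fell from 15.4 ± 1.87 to 0.170 ± 0.1003 CPM and H2AFJ from 208 ± 35.2 to 135.9 ± 15.6 CPM. H3F3B, which encodes H3.3, fell by 0.23 on the log2 scale, and H3F3A, which encodes the same protein, H2AFZ and H1F0 did not pass at 0.04, 0.16 and -0.03.

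Factors that transcribe histone genes or process and degrade their mRNAs were mostly lower. Of 44 analysed of 48 listed, 6 rose, 24 fell and 14 did not pass (median -0.35). SLBP, which binds the stem-loop, was at 107.5, 95.5 and 85.1 CPM in untreated and 44.6, 50.3 and 49.6 CPM in FIR libraries, without overlap, a log2 fold change of -1.0 (SE 0.10, edgeR adjusted p = 6.8e-07). NPAT, the coactivator of histone transcription, was at 21.1, 22.7 and 19.7 CPM against 19.1, 19.4 and 19.9 CPM, which overlap, and did not pass (-0.12, edgeR adjusted p = 0.385). E2F1, CCNE2 (cyclin E2) and CDK2, which drive entry into S phase, had the largest falls, at -4.04, -1.91 and -1.89. The largest rises were small: NFYA, a subunit of the factor that binds CCAAT, rose by 0.45, NCBP2, a cap-binding protein, by 0.44 and XRN1, a 5′ to 3′ exonuclease, by 0.40.

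Histone chaperones carry histones to and from DNA. Of 36 analysed of 38 listed, 4 rose, 24 fell and 8 did not pass (median -0.48), and the 4 became 2 without untreated replicate 1 or without FIR replicate 1. ASF1B, an H3-H4 chaperone of replicating cells, fell by 6.98 on the log2 scale from 56.3 ± 14.0 to 0.436 ± 0.260 CPM. HJURP, the CENPA chaperone, fell by 6.25 and CHAF1B, a subunit of the replication-coupled assembly factor CAF-1, by 2.83. The rises were led by TSPYL1, a member of the nucleosome assembly protein family, at 0.68, with NAP1L4 at 0.39 and ATRX at 0.34.

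Genes of DNA synthesis moved opposite to most of the clustered histone genes. All 32 listed genes were analysed and all 32 fell (median -2.14), with RRM2, a subunit of ribonucleotide reductase, at 161, 144 and 100.5 CPM in untreated and 1.41, 0.583 and 1.45 CPM in FIR libraries. Its log2 fold change was -6.87 (SE 0.23, edgeR adjusted p = 7.9e-12). CDC45, a part of the replicative helicase, and TK1, thymidine kinase, fell by 6.11 and 4.57. The part of this shift in the histone values was not tested.

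Depth and identity of the libraries were checked over the whole table. Reads over all genes were 16805679 to 21004697 in untreated and 15703483 to 16542096 in FIR libraries. All 7 luminal prostate markers were present, at mean levels of 292 to 2958 CPM. None of 6 immune markers was among the genes analysed here. Fibroblast and smooth muscle markers (3 of 5 analysed, without COL1A2 and DCN) summed to 25.8 to 28.1 CPM in untreated and 13.4 to 18.1 CPM in FIR libraries. COL1A1 fell (log2 fold change -2.17), whereas COL3A1 and ACTA2 rose (3.46 and 1.15). Of 3 endothelial markers VWF was analysed and PECAM1 and CDH5 were not, with VWF at 28.9 to 40.6 and 5.08 to 6.22 CPM. Their part in the histone results was not tested.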

How the data were processed

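RNA-seq libraries of untreated (n = 3) and FIR-treated (n = 3) LNCaP cells were compared. Per the file headers, the authors deposited unnormalised counts of reads for every gene with its length. Tools listed in the submitters' processing notes are STAR 2.5, Subread 1.6.2 with featureCounts, and edgeR 3.20.8, and the build is hg38. No annotation release, strand setting or handling of multi-mapping reads is given in the sources used here, so overlapping genes and near-identical copies may share reads. Library columns were matched by name, leaving 0 unmatched.

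After TMM scaling the counts were fitted in edgeR 4.0.16 (R 4.3.3; glmQLFit, glmQLFTest) with group as the sole term. Benjamini-Hochberg adjustment ran over 16311 genes with a threshold of 0.05. The filterByExpr rule (minimum count 10) removed 0 genes. Low genes had been removed before deposit, since the third-highest library of each gene held 0.605 CPM or more, so a scarce member could pass through its higher group. Among called members, HIST1H1PS1, HIST1H4D and HIST2H4B lay under that level in every untreated library and HIST1H2AJ in every FIR library. Their fold changes and p-values carry that selection. SE was taken as log2 fold change over the root of F. CPM and RPKM were computed from the deposited counts and lengths. Class sums added the CPM of a class's rows and were not tested. The pipeline was tested on simulated data. Alternatives were other scalings and filters, a replicate block, single libraries left out, repeated symbols summed, limma-voom 3.58.1 and DESeq2 1.42.0.

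The members and all lists were chosen with earlier results of these data known. Values per library are given for the most abundant row, the largest rise and the largest fall of each class and for rows with a mean of at least 10 CPM; other genes named per library were chosen after their values were seen. From each list the 3 largest called changes in each direction are named, if either group averaged 1 CPM or more, with SLBP, NPAT and 6 variants. Rows off the primary chromosomes were left out of the lists.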

Additional observations from a re-analysis of the deposited data

How the results depend on the processing

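Of 38 members, 25 to 26 rose and 3 to 4 fell under other scalings, filters and tools, the block and single libraries left out. No called member changed direction, while HIST1H3J, which passed in no setting, ranged from -0.16 to 0.26 on the log2 scale. The 3 falls came under the filter of 1 CPM in 3 libraries, which removed HIST1H2AJ from the test. Replicate numbers did not pair the libraries (correlations 0.0316, -0.0535 and -0.0705), and with the replicate block 25 rose and 4 fell. HIST2H4B kept its direction but lost its call in 9 of 14 settings, at adjusted p up to 0.18, among them library-size scaling, limma-voom and DESeq2. Without rows that overlap another row or are mostly not unique, an alternative chosen after seeing the data, 18 of 25 rose and 3 fell. Library-size scaling shifted the median of all genes by -0.055 and made 45.9% of all calls higher, against 52% with TMM.

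The log2 ratios of class sums depended on which rows entered. With TMM and all rows they were 0.71 for H1, 1.68 for H2A, 1.38 for H2B, 0.67 for H3 and 1.20 for H4. Without the most abundant row, they were 1.73 for H1, 0.18 for H2A, 1.11 for H2B and 0.84 for H4. Without the rows listed as polyadenylated they were 1.73 for H1, 0.18 for H2A and 0.97 for H2B. Medians of the single genes' log2 fold changes were 1.65 for H1, 0.72 for H2A and 1.14 for H2B. H2B also stood at 1.5 without pseudogene or otherwise named rows and at 1.70 without overlapping or mostly shared rows, both added after seeing the data. Among histone chaperones 2 to 4 genes rose with single libraries left out. At 3 reads, the level is 0.143 to 0.191 CPM, which limits HIST1H2AJ and HIST1H4D.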
